A study of Mus musculus with 39 samples.

Results

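Neutrophil granule genes were followed in cells of mouse brown fat through 10 genes, picked by symbol from 29411 gene symbols on the array. The members were Mpo, Prtn3, S100a8, S100a9, Camp, Ngp, Ltf, Lcn2, Csf3r and Cebpe. The question was how the genes of the early granules (Mpo and Prtn3) and the late genes (S100a8 and Camp) behaved over 5 diets, 3 doses of a formulation and 11 time labels.

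Mice of the strain C57BL/6J, weaned at 3 to 4 weeks of age, were given 1 of 5 diets. LFC was a low fat diet with 10% of calories from fat, and HFC was a high fat, high sucrose diet with 60% of calories from fat. HF5, HF20 and HF75 were the HFC diet with the botanical formulation KAL-1 at 5, 20 or 75 µg. The labels name the material as infiltrating macrophages of brown fat (SVCs, the stromal vascular cells left when the fat cells are taken away). The 39 arrays held 10 of LFC, 11 of HFC and 6 of each dose, with 1 array for a diet at a time label, so the spread over time labels is the error of every difference between diets. The labels run over Day 1, 6, 10 and 14 and Week 0, 3, 6, 9, 12, 15 and 18, where weeks count from Day 14, LFC has no array at Week 6 and the doses start at Week 3. They do not say whether an array holds 1 animal or a pool.

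Neutrophils are made in the bone marrow, where granules fill in a fixed order. The primary granules come first, at the promyelocyte stage, and hold Mpo (myeloperoxidase, which makes hypochlorous acid) and Prtn3 (proteinase 3, a serine protease). The secondary granules follow, with Camp (cathelicidin, an antimicrobial peptide), Ltf (lactoferrin, which binds iron), Lcn2 (lipocalin 2, which binds bacterial siderophores) and Ngp (neutrophilic granule protein). S100a8 and S100a9 form calprotectin, a calcium-binding protein that is abundant in the cytosol of mature neutrophils. Cebpe is the transcription factor needed for secondary granules, and Csf3r is the receptor of G-CSF, the main growth factor of the lineage. In fat, transcripts of mature neutrophils mark cells that came with the blood or entered the tissue, while transcripts of primary granules are normally high only in immature cells of the marrow.

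Each value is the log2 of a spot's processed intensity minus the 75th percentile of its array, so 0 is the 75th percentile and 1 unit is a doubling. A probe counts as well above background where the scanner software marked it so. Spots with an outlier mark were left out, which removed 11 of the 390 values of the members, 6 of them on HF20 Week 15, 3 on HF5 Week 12 and 2 on HFC Week 12. A further 89 values were not well above background. Such a value is only a bound, and it depends on how bright the array was, since the lowest level marked well above background ran from -8.12 to -2.12 between arrays.

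The following probes, 60 bases long and printed 5′ to 3′ in lower case, are shown because the contrast of early and late genes rests on these 4 targets.
Mpo probe: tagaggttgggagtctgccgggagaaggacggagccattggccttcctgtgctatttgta
Prtn3 probe: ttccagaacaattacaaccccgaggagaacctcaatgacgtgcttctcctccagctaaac
S100a8 probe: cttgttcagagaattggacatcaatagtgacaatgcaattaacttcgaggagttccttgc
Camp probe: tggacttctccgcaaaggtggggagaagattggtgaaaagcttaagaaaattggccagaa
The array table places Mpo on chromosome 11 (band C), Prtn3 on chromosome 10 (C1), S100a8 and S100a9 on chromosome 3 (F1-F2) and Camp on chromosome 9 (F2). In the RefSeq order S100a8 and S100a9 are neighbours with 0 protein-coding genes between them, as are Prtn3 and Elane. Camp and Ngp lie on chromosome 9 with 8 protein-coding genes between them. Each gene was read from its brightest probe, and Ltf is the only member with a further probe.

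Promoters are shown because the late members varied together over the arrays, while Mpo and Prtn3 followed them less closely. RefSeq promoters (GRCm38.p6, 250 bases before to 50 after the start) were matched for 9 members, and Cebpe had no entry. Capitals mark matches to GAGGAAG, a site of the type bound by PU.1, and to TTGCNNAA, a site of the type bound by C/EBP factors, on both strands. No 2 matches overlapped.
Mpo, chr11:87793534-87793833, + strand: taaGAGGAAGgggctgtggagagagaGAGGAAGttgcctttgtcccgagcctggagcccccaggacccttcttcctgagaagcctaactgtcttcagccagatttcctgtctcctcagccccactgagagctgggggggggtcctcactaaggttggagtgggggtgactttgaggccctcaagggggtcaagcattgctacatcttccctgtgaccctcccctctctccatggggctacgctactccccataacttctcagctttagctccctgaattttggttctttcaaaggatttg
Prtn3, chr10:79879417-79879716, + strand: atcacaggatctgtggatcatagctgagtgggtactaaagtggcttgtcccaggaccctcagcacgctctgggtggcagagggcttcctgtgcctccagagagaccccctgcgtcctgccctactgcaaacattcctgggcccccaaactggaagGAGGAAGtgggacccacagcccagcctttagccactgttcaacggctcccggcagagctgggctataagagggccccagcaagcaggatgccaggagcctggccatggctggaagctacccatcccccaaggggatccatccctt
S100a8, chr3:90668821-90669120, + strand: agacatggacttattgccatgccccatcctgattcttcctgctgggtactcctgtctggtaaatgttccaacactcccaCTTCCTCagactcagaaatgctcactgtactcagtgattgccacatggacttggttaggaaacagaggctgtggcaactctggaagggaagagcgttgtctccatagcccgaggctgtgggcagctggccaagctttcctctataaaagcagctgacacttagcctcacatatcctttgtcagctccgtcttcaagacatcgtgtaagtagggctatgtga
Camp, chr9:109849407-109849706, - strand: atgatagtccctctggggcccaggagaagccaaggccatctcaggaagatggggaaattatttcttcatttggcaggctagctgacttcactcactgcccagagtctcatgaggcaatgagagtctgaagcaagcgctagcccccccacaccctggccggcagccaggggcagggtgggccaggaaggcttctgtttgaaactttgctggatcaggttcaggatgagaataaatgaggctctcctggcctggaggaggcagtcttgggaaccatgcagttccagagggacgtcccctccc
Ngp, chr9:110419558-110419857, + strand: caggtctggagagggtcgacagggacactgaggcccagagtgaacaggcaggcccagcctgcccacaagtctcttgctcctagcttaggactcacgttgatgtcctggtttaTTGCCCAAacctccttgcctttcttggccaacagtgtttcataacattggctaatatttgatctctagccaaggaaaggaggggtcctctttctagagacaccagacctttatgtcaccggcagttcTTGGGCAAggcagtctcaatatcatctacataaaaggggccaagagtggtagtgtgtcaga
Of the 9 promoters 5 held GAGGAAG, against 13.63% of all 32851 RefSeq promoters of this length, and 4 held TTGCNNAA, against 10.8%. Both early promoters (Mpo with 2 matches, Prtn3 with 1) held GAGGAAG and no TTGCNNAA, and so did those of S100a8 and Csf3r with 1 match each. The 4 promoters with TTGCNNAA were all of late members (Ngp, Ltf, Lcn2 and S100a9), while the late S100a8 and Camp held none. Neither motif thus fully divided early from late genes. Ngp had 2 matches to TTGCNNAA and 0 to GAGGAAG, and Camp had none of either, so its promoter is printed without capitals. These matches are letters in a window and not measured binding.

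The labelled cell type was checked against its markers. Emr1 (F4/80, a macrophage surface protein) was well above background on 39 of 39 arrays, from -1.42 to 4.15. Fat cell genes were there too, since Adipoq (adiponectin) was well above background on 39 of 39 arrays, from 1.12 to 7.04, and so was Ucp1, the uncoupling protein of brown fat cells, from -3.18 to 8.82. The 2 arrays lowest in Ucp1 were HFC Week 12 (-3.18) and LFC Day 10 (-3.16), and the next was HF20 Week 15 (1.48). Both of the lowest enter the comparison of HFC with LFC. The 75th percentile of intensity ran from 18.1 to 3974 with a median of 129.9, and 3 arrays had more than 10% of spots with an outlier mark. In bulk RNA, fewer neutrophils and less RNA per neutrophil cannot be told apart.

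2 labels need care. At Day 14 the deposited table takes the array labelled HFC as its reference, where every other time label with an LFC array takes that array, so the diets of Day 14 may be exchanged and were kept as labelled. The Week 12 array named HF20 carries a characteristic for the high fat diet alone, and it was grouped by its title and source name.

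The late genes ranged widely over the arrays. S100a8, above background throughout (39 of 39 arrays), had a lowest level of -3.70 (HF5 Week 9), a median of 2.35 and a highest of 6.86 (HF20 Week 18), a 1508-fold range. S100a9 ran from -0.13 to 10.1, a range of at least 1231-fold, since its spot on HF5 Week 3 (9.80) was saturated and that level is only a lower bound. Camp was well above background on 33 arrays and ran from -6.86 (HFC Week 6) through a median of -0.82 to 3.03 (HF20 Week 18). The highest arrays of S100a8 were those of HF20 Week 18 (6.86), LFC Week 9 (6.63) and HF5 Week 3 (6.31), from 3 different diets.

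The early genes ranged less. Mpo was well above background on 28 of 36 arrays with a value, with a lowest level of -4.42 (HF5 Week 15), a median of -2.07 and a highest of 1.16 (HF75 Week 18), a 47.9-fold range. Prtn3 was well above background on only 14 of 38 arrays, from -6.73 to -1.83, so most of its values are bounds. The remaining members were well above background on 35 (Ltf), 30 (Csf3r), 27 (Cebpe), 23 (Ngp) and 22 (Lcn2) arrays.

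**Figure D1:**
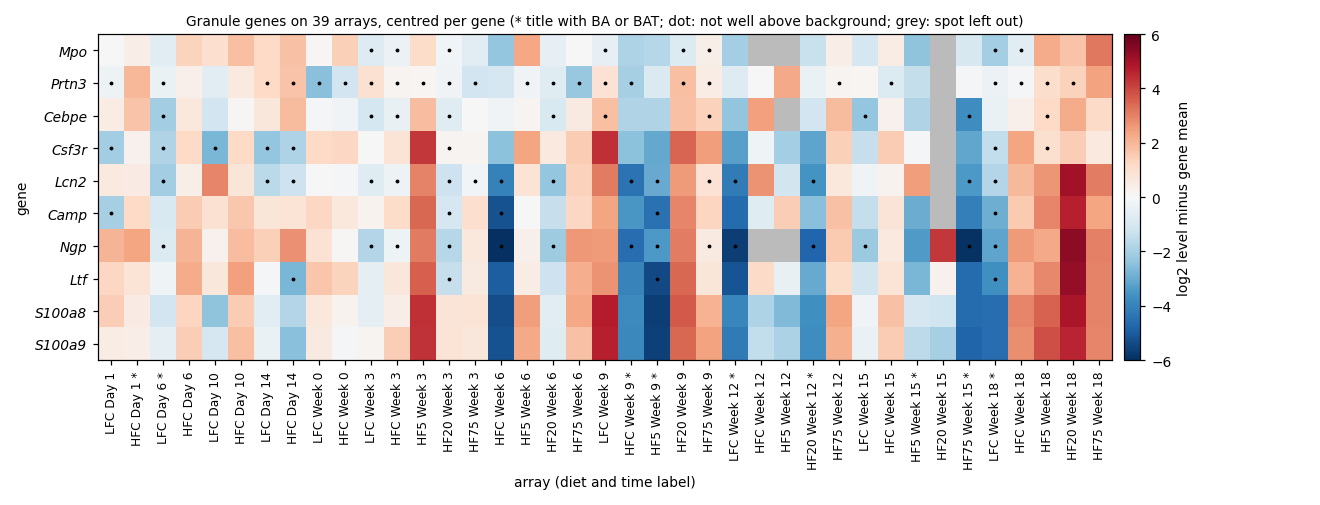
Level of each granule gene (rows) on each of the 39 arrays (columns, by time label and then diet), as log2 level minus the mean of the gene, where an asterisk marks a title with BA or BAT, a dot a value not well above background and grey a spot left out. The rows of Lcn2 to S100a9 share blue columns at HFC Week 6 and at most arrays with an asterisk from Week 9 on, while Mpo and Prtn3 show weaker colours.

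The arrays fell apart first by a word in their titles. In 9 of the 39 titles the letters BA or BAT appear, the other 30 lack them, and no label gives their meaning. Some of the other titles hold B alone or B-A with a hyphen, which was not counted as the same token. These 9 are called titled arrays here and the 30 untitled. All 10 members were lower on the titled arrays in a fit with diet and time label (limma with Benjamini-Hochberg adjustment, adjusted p under 0.05), against 28.4% of the 31718 probes tested that were lower and 50.4% that differed in either direction, though under quantile normalization the sign of Prtn3 turned. The median difference of the members was -3.75, against -0.16 over all probes tested. Genes hardly detected were lower too. Rag1 and Cxcl5, each well above background on 3 arrays and not tested, had untitled medians of -4.81 and -4.76. Their titled medians were -8.26 and -7.86. For members near background the difference may thus follow the floor of the arrays, which was not tested. S100a8 and S100a9 were well above background on all 39 arrays. A difference by title was known from earlier results of these data, so it is not independent support.

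S100a8 on the 9 titled arrays had a lowest level of -3.70, a median of -1.88 and a highest of 2.45. On the 30 untitled arrays it had a lowest of -3.38, a median of 2.99 and a highest of 6.86. The ranges overlap, with HFC Day 1 as the highest titled array and HFC Week 6 as the lowest untitled one. The fitted difference fell by 4.66 ± 0.92 (SE, limma adjusted p = 0.00037), a 25.2-fold lower level.

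The other late members followed. Camp fell by 3.85 ± 0.73 (limma adjusted p = 0.000287), from an untitled median of -0.51 to a titled median of -4.60. Ngp fell by 5.03 ± 0.89 (limma adjusted p = 0.000188) and was well above background on 2 of 9 titled and 21 of 28 untitled arrays. For Ltf the difference was -4.65 ± 0.74 (limma adjusted p = 8.59e-05), and its further probe gave -5.00. Lcn2 (-3.64 ± 0.77, limma adjusted p = 0.000647) was well above background on 2 titled arrays, so its difference, like that of Ngp, rests in part on bounds. S100a9, the partner of S100a8, differed by -4.68 ± 0.88 (limma adjusted p = 0.000268).

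The early genes moved the same way by less. Mpo fell by 1.83 ± 0.44 (limma adjusted p = 0.00192), from a median of -1.64 over 27 untitled arrays to -3.71 over 9 titled arrays, and it was well above background on 8 titled arrays. Prtn3 differed by -1.07 ± 0.43 (limma adjusted p = 0.0405). This call was lost when each array was scaled by its median (-0.59, limma adjusted p = 0.205). The sign turned under quantile normalization (0.03, limma adjusted p = 0.965). Prtn3 was well above background on 6 of 9 titled and 8 of 29 untitled arrays. Its difference thus rests in part on bounds, most of them on untitled arrays, where the true level may be lower. The growth factor receptor Csf3r differed by -2.89 ± 0.76 (limma adjusted p = 0.00314). The granule regulator Cebpe differed by -2.37 ± 0.44 (limma adjusted p = 0.000283). Without Week 9, Csf3r was -1.51 and no longer called (limma adjusted p = 0.117), and Prtn3 was -0.51 (limma adjusted p = 0.433). The call of Prtn3 was lost at 6 of 11 time labels left out in turn.

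The difference was also there within time labels. At 6 time labels with both kinds of title, the mean level of S100a8 was lower on titled arrays at 6 of 6. Every titled array lay below every other array at 5 of 6. Day 1 and Day 6 set 1 titled array against 1 untitled array of the other diet, so title and diet cannot be told apart there. Such counts were not made over all probes. For Emr1 they were 4 and 3 of 6. The within-label difference of S100a8 ran from -8.21 (Week 9) to -0.96 (Day 1). At Day 1, Day 6 and Week 9 titled and untitled arrays shared no scan date, so title and scan date cannot be told apart there. The 75th percentile at Week 9 was 917.7 and 1076 on titled arrays and 18.1 to 24.1 on untitled ones. At Week 12, scanned on 1 date for its 5 arrays, titled S100a8 values of -1.96 (LFC) and -1.76 (HF20) lay below 0.11 (HFC), -0.71 (HF5) and 4.31 (HF75). At Week 15, also scanned on 1 date, the titled values of 0.95 (HF5) and -2.67 (HF75) overlapped with 0.75 on HF20, an array with 71.4% of spots marked as outliers, while LFC (1.71) and HFC (3.69) were higher. Day 1 ran the other way for Camp, where the titled HFC array was at -0.43 and the untitled LFC array at -3.62, not well above background.

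Other neutrophil genes gave the same picture. Of 17 further genes of late granules and mature neutrophils, 17 were lower on titled arrays and passed the test, with a median of -3.83. The collagenase Mmp8 (-5.41 ± 0.93, limma adjusted p = 0.000146) and Retnlg, a resistin-like protein of neutrophils (-5.29 ± 0.80, limma adjusted p = 6.19e-05), had the largest differences of the 17. Retnlg was well above background on all 9 titled arrays, but Mmp8 on 2, Olfm4 on 1 and Itgb2l on 0. Several of the 17 differences thus rest in part on bounds. Of 8 further genes of the early stage 6 were tested, and 4 were lower, 1 was higher and 1 did not pass. The neutrophil elastase Elane differed by -1.06 ± 0.44 (limma adjusted p = 0.0436), and Gfi1, a repressor needed for neutrophil formation, by -3.03 ± 0.55 (limma adjusted p = 0.00021). Elane was well above background on 22 arrays, 8 of them titled, so its bounds lie mostly on untitled arrays. Gfi1 was so on 16 arrays, 2 of them titled. The higher one was Cebpa (2.83 ± 0.59, limma adjusted p = 0.000545), which fat cells also express.

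Most genes of signals that draw, release or hold back neutrophils were lower as well. Of 7 such genes 6 were tested and 5 were lower, Cxcr4 among them. Il1b (interleukin 1 beta) differed by -5.52 ± 0.96 (limma adjusted p = 0.000148), Cxcl1 by -4.59 ± 1.00 (limma adjusted p = 0.000851) and Cxcl2 by -6.62 ± 1.08 (limma adjusted p = 0.000105), and both chemokines are ligands of the neutrophil receptor Cxcr2. Il1b was well above background on 9 titled arrays and Cxcl1 on 8, but Cxcl2 on 2, so the Cxcl2 difference rests in part on bounds. Csf3, also tested, was well above background on 9 arrays, 2 of them titled. Cxcl12, which holds neutrophils in the marrow, had a difference of 0.02 ± 0.40 (limma adjusted p = 0.976).

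Markers of several other cell types moved with the title too, where 28.4% of all probes tested were lower and 22% higher. Of 9 macrophage genes 9 had a lower estimate and 5 passed, with a median of -1.04, and their summed level was 2.43 to 3.78 on 8 titled and 2.90 to 5.60 on 27 untitled arrays with every marker measured. Of 8 erythroid genes 6 were lower, among them Slc4a1 (band 3 of red cells, -3.72 ± 0.48, limma adjusted p = 3.35e-05). Of 7 adipocyte genes 4 were higher, led by Plin1 (perilipin 1, 3.40 ± 0.64, limma adjusted p = 0.000258), and 1 was lower, Fabp4 (-2.36 ± 0.53, limma adjusted p = 0.000924). Saturated spots reached 2.57% on titled arrays (LFC Week 12) and 1.32% on untitled ones (HFC Week 12). Titled medians of Fabp4 (6.20), Plin1 (6.10), Adipoq (6.15) and the erythroid Hba-a1 (6.16) and Hbb-b1 (6.29) lay close together. These levels may thus be capped by the scanner and be lower bounds, and whether Fabp4 truly fell was not tested. Lymphocyte and mast cell genes were lower too, with 3 of 3 B cell genes (median -2.46), 2 of 3 T cell genes (median -2.38) and 3 of 4 mast cell genes (median -1.05) past the test. Fewer genes passed in the other lists, with 2 of 5 brown adipocyte genes higher and 1 of 3 endothelial genes lower. Of 3 skeletal muscle genes and 3 tested B cell precursor genes, 0 passed. Titled arrays were brighter as a set, with a median 75th percentile of 852.4 against 81.1 intensity units. The part of these cells and of brightness in the granule gene difference was not tested.

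1 untitled array stood with the titled ones. On HFC Week 6 S100a8 was -3.38, S100a9 0.24, Camp -6.86 and Ngp -8.77, where Camp and Ngp were not well above background, while Adipoq was 6.51 and the 75th percentile 747.6. Ucp1 (6.44) and Hbb-b1 (6.34) lay close to Adipoq there and 1.05% of spots were saturated, so this Adipoq level may be capped by the scanner. The 8 arrays with the lowest late score, which is the mean of centred S100a8 and Camp, were HFC Week 6 and 7 of the titled arrays, with scores up to -1.98 against -1.28 for the next array.

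The high fat diet was then set against the low fat diet. None of the 10 members passed the test (limma, adjusted p under 0.05), where 0% of 31718 probes passed and 3.09% had an unadjusted p under 0.05. All 10 members had an estimate above 0, with a median of 0.62 against 0.04 over all probes tested, and none had an unadjusted p under 0.05. Of all probes 53.29% had an estimate above 0. The standard errors of the members ran from 0.47 (Prtn3) to 1.27 (S100a8) and exceeded the estimate for 7 of the 10.

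S100a8 had a lowest level of -2.63, a median of 1.31 and a highest of 6.63 over 10 LFC arrays. Over 11 HFC arrays it had a lowest of -3.38, a median of 2.35 and a highest of 4.86. The 2 diets overlapped over nearly their whole range, and the fitted difference was 0.40 ± 1.27 (limma adjusted p = 0.999). Its difference was above 0 at 6 of 10 time labels, from -8.51 at Week 9, where the HFC array is a titled one, to 7.49 at Week 18, where the LFC array is. The 2 extremes are both comparisons of a titled with an untitled array.

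Mpo gave the most even differences between these diets. It was higher on HFC at 8 of 9 time labels, from -1.37 (Week 9) to 2.03 (Day 6), with a median of 0.82, and the fitted difference was 0.62 ± 0.54 (limma adjusted p = 0.999). Over the 10 LFC arrays Mpo had a lowest level of -4.06, a median of -2.60 and a highest of -0.79. Over 10 HFC arrays it had a lowest of -4.34, a median of -1.59 and a highest of -0.19. The groups overlapped, and Mpo was not well above background on 3 LFC and 2 HFC arrays. For Camp the fitted difference was 0.84 ± 1.03 and for Cebpe 1.12 ± 0.61 (limma adjusted p = 0.999 for both). Against the further lists, 15 of 17 late neutrophil genes, 9 of 9 macrophage genes and 4 of 4 mast cell genes had estimates above 0, and none passed.

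**Figure D2:**
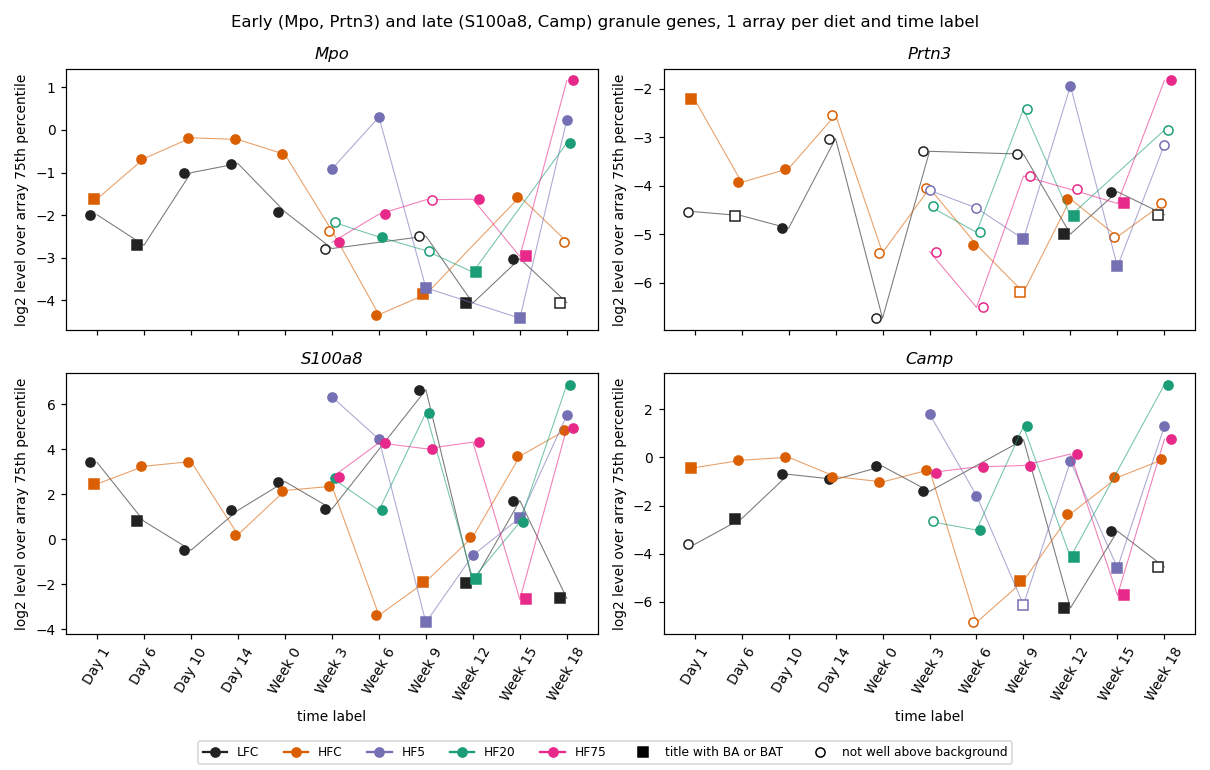
Log2 level over the 75th percentile of the array (y axis) of Mpo, Prtn3, S100a8 and Camp by time label (x axis), 1 point per array, coloured by diet, with squares for titles with BA or BAT and open points for values not well above background. S100a8 and Camp are low at most square points from Week 9 on and at HFC Week 6, and open points dominate in Prtn3.

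The KAL-1 doses were set against HFC at Week 3 to Week 18. No member passed for any dose, where 0% of the 31718 probes passed and 1.59% (HF5), 2.82% (HF20) and 3.82% (HF75) had an unadjusted p under 0.05. No member had an unadjusted p under 0.05 for any dose. For HF5 9 of 10 members had an estimate above 0 (median 0.96), for HF20 9 of 10 (median 0.93) and for HF75 10 of 10 (median 1.30), beside medians of -0.06, -0.06 and 0.01 over all probes tested. Of all probes 44.94% (HF5), 45.92% (HF20) and 50.92% (HF75) had an estimate above 0. The 3 comparisons share the HFC arrays and the late members varied together, so the counts of members are not separate evidence.

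S100a8 was 2.35, -3.38, -1.88, 0.11, 3.69 and 4.86 on the HFC arrays of Week 3, 6, 9, 12, 15 and 18. On HF75 it was 2.74, 4.28, 4.01, 4.31, -2.67 and 4.94 in the same order. It was higher on HF75 at 5 of 6 time labels, and the exception is Week 15, where the HF75 array is a titled one. At Week 9 it is the HFC array that is titled. The fitted difference was 1.81 ± 1.58 (limma adjusted p = 1.000), and it was 0.84 without Week 6 and 3.41 without Week 15. HF20, with 2.72, 1.28, 5.61, -1.76, 0.75 and 6.86, was higher at 4 of 6 (fitted difference 1.46 ± 1.58, limma adjusted p = 0.985). HF5, with 6.31, 4.44, -3.70, -0.71, 0.95 and 5.50, was higher at 3 of 6 (fitted difference 1.01 ± 1.58, limma adjusted p = 1.000). No dose kept clear of the HFC range.

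Single time labels weighed heavily on these differences. At Week 6 the HFC array was the lowest of the series in the late score, and S100a8 on the doses exceeded it by 4.66 (HF20) to 7.82 (HF5). At Week 9, where the HFC array is titled, HF20 exceeded it by 7.49. Without Week 6 the S100a8 difference was -0.15 for HF5 and 1.02 for HF20, and without Week 9 it was 2.08 for HF5 and 0.75 for HF20. With each time label left out in turn, the sign turned only for HF5. Without the titled arrays and HFC Week 6, a setting chosen after seeing the data, the HF20 difference was -0.40.

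Mpo over the doses did not mirror S100a8 at every time label. On HFC it was -2.37, -4.34, -3.86, -1.57 and -2.62 at Week 3, 6, 9, 15 and 18, and its Week 12 spot was left out. HF75 had -2.64, -1.98, -1.64, -2.97 and 1.16 at these labels. It was higher at 3 of 5, and the fitted difference was 1.24 ± 0.68 (limma adjusted p = 1.000). HF5, with -0.92, 0.30, -3.71, -4.42 and 0.24, was higher at 4 of 5, by up to 4.64 at Week 6, and lower by 2.85 at Week 15, where its array is titled. Its fitted difference was 1.05 ± 0.71 (limma adjusted p = 1.000), and 0.26 without Week 6. HF20 lay above HFC at 4 of 4 labels with both values, from 0.21 to 2.31, with a fitted difference of 0.51 ± 0.73 (limma adjusted p = 0.990). Both HF20 and HFC were not well above background at Week 3, HF20 and HF75 at Week 9 and HFC at Week 18, so only the Week 6 difference of HF20 (1.82) has a measured level on both sides.

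Ngp had the largest estimates of the 10 members for HF20 (2.54 ± 1.59, limma adjusted p = 0.985) and HF75 (2.28 ± 1.59, limma adjusted p = 1.000). Its HF20 value at Week 15 (1.78) came from the array with 71.4% of spots marked as outliers. A slope over the order of the doses was above 0 for 10 of 10 members, with a median of 0.41 per step and the highest for Ngp (0.84 ± 0.57, limma adjusted p = 0.889). Of all probes 50.42% had a slope above 0. No member passed, where 0% of probes passed and 7.41% had an unadjusted p under 0.05. Of the 17 further late genes 17 had a slope above 0, of 8 erythroid genes 7, and of 9 macrophage genes 4, and none of these passed.

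**Figure D3:**
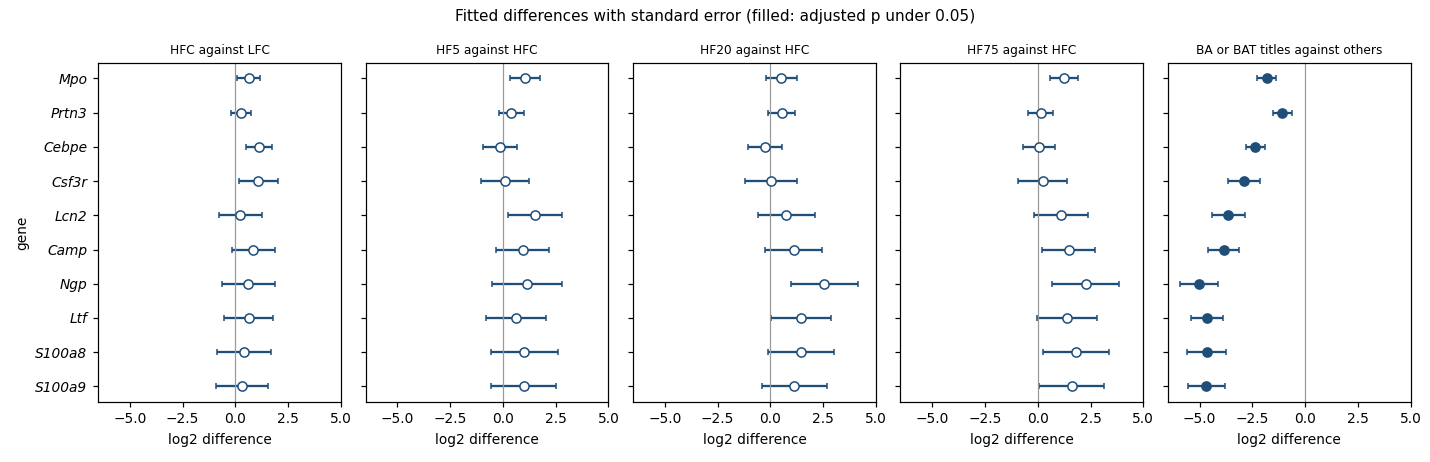
Fitted log2 difference of each granule gene (points, with standard error as bars) for the 4 comparisons of diets and for arrays with BA or BAT in the title against the others, with filled points for an adjusted p under 0.05. Only the right panel has filled points, and its values run from -5.03 (Ngp) to -1.07 (Prtn3, whose sign turned under quantile normalization).

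Over time on LFC and HFC, 9 of 10 members had a slope below 0 per doubling of days and none passed, where 0% of probes passed and 12.9% had an unadjusted p under 0.05. The median slope of the members was -0.24 and that of all probes tested -0.04, and 38.75% of all probes had a slope above 0. Mpo had -0.33 ± 0.11 (unadjusted p = 0.00842, limma adjusted p = 0.248), or -0.58 without Day 1, and Ngp -0.64 ± 0.25 (unadjusted p = 0.0173, limma adjusted p = 0.299). Mpo on HFC was -1.62, -0.67, -0.19, -0.22 and -0.58 from Day 1 to Week 0, and -4.34 to -1.57 from Week 3 on. The later values lay below the earlier ones except that Week 15 (-1.57) was just above Day 1 (-1.62). Of the 17 further late genes 17 had a slope below 0, as had 8 of 8 erythroid genes, and none passed. Of these LFC and HFC arrays 2 of the 10 up to Week 0 and 3 of the 11 from Week 3 on were titled. Without the titled arrays and HFC Week 6, still 0 members were called. Whether the difference between HFC and LFC changed from the early labels (Day 1 to Week 0) to the later ones was tested as an interaction. No member passed, where 0% of probes passed and 2.6% had an unadjusted p under 0.05. Estimates were above 0 for 4 of 10 members and for 41.41% of all probes. Prtn3 had the lowest unadjusted p (-1.93 ± 0.70, unadjusted p = 0.0181, limma adjusted p = 1.000).

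Early and late genes were set against each other on each array. The early score (mean of centred Mpo and Prtn3) had an SD of 1.12 over 36 arrays, and the late score had an SD of 2.56 over 38. Their difference, early minus late, ran from -3.33 (LFC Week 9) to 3.81 (HF75 Week 15) with a median of 0.01. Most of the highest differences belonged to arrays where the late genes were low, but on HFC Day 14 (2.19, with an early score of 1.74 and a late score of -0.46) and LFC Day 14 (1.18, with 1.21 and 0.03) the early score made up most of it. The 9 titled arrays had values from 0.05 to 3.81, all above 0, and 9 of 27 untitled arrays were above 0, led by HFC Week 6 with 3.62. The lowest values belonged to arrays with much S100a8 and Camp, such as LFC Week 9, HF5 Week 3 (-3.29) and HF20 Week 18 (-3.25).

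Bounds weigh on this contrast. Mpo and Prtn3 were both well above background on 12 of the 36 arrays, 6 titled and 6 untitled, and over these early minus late ran from 0.05 to 3.81 and from -0.59 to 3.62. The 2 sets overlap here, as they do over all arrays. HF75 Week 18 is the clearest array with high early genes, with Mpo at 1.16 and Prtn3 at -1.83, both well above background, beside S100a8 at 4.94 and Camp at 0.75, and its early minus late value was 0.10. On LFC Week 9 and HF20 Week 9, where S100a8 was 6.63 and 5.61, Mpo was -2.49 and -2.83 and not well above background.

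The days around the change of labels gave a further contrast. Day 14 and Week 0 are the same day by the count of the study. On HFC the early minus late value was 2.19 at Day 14 and -0.28 at Week 0, and on LFC it was 1.18 and -2.15. S100a8 was 0.20 at Day 14 and 2.16 at Week 0 on HFC, and Mpo was -0.22 and -0.58. Prtn3 was not well above background on any of the 4 arrays.

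Between diets early minus late did not separate. The mean difference over time labels was -0.26 ± 2.83 (SD, n = 9) for HFC against LFC and -0.34 ± 2.63 (SD, n = 5) for HF5 against HFC. It was -1.90 ± 2.43 (SD, n = 4) for HF20 and -0.50 ± 4.65 (SD, n = 5) for HF75. The SD exceeded the mean in each of the 4. For HF75 the values ran from -6.53 at Week 6, against the low HFC array, to 5.27 at Week 15, where the HF75 array is titled.

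**Figure D4:**
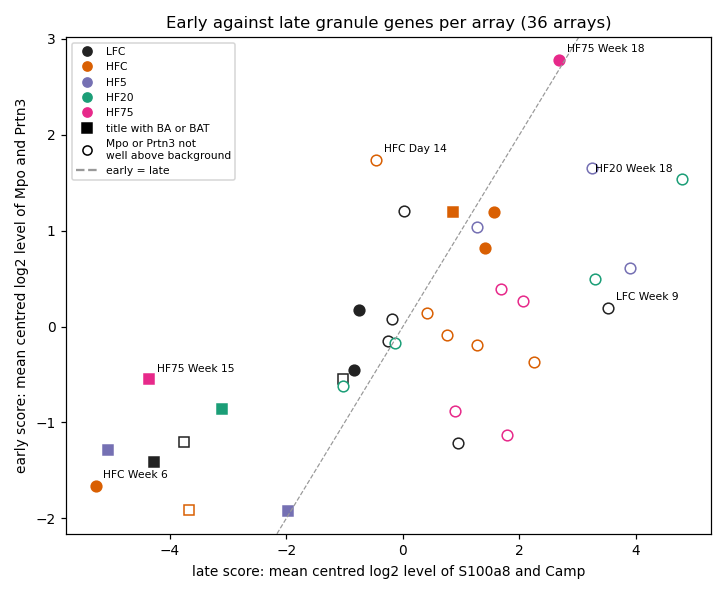
Early score (y axis, mean centred log2 level of Mpo and Prtn3) against late score (x axis, mean centred log2 level of S100a8 and Camp) for 36 arrays, coloured by diet, with squares for titles with BA or BAT, open points where Mpo or Prtn3 was not well above background, and a dashed line where both scores are equal. All 9 squares lie above the line, most of them at the left, and the late score spreads more widely (SD 2.56) than the early score (SD 1.12).

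Pairs of these 4 genes were compared over the arrays (6 pairs, permutation tests with 100000 resamples, two-sided, adjusted over the 6 pairs within each set of arrays). The closest pair was S100a8 and Camp, with Pearson r = 0.85 and Spearman rho = 0.82 over 38 arrays (permutation p = 1e-05 for both, the smallest these can give, adjusted 3e-05 for r and 6e-05 for rho). Within the 29 untitled arrays r was 0.73 and rho 0.71 (permutation p = 2e-05 and 3e-05, adjusted 0.00012 and 0.00018). Without the 2 arrays farthest from the median of S100a8 r was 0.81 over all arrays and 0.69 over the untitled ones.

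Mpo and the late genes were less closely tied. Mpo and Camp had r = 0.73 and rho = 0.67 over 36 arrays (permutation p = 1e-05 and 2e-05, adjusted 3e-05 and 6e-05). Over 27 untitled arrays r was 0.54 (permutation p = 0.0032, adjusted 0.0096) and rho 0.35 (permutation p = 0.0727, adjusted 0.145), and r fell to 0.34 without the 2 farthest arrays, so the relation within untitled arrays rests on those. Mpo and S100a8 had r = 0.62 and rho = 0.60 over all arrays (permutation p = 0.0001 and 0.00015, adjusted 0.0002 and 0.000225), and r = 0.36 and rho = 0.26 over the untitled ones (permutation p = 0.0647 and 0.187, adjusted 0.0777 and 0.224). Without the 2 farthest arrays r was 0.77 for Mpo and Camp and 0.60 for Mpo and S100a8 over all arrays, and 0.08 for Mpo and S100a8 over the untitled ones.

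The 2 early genes had r = 0.49 and rho = 0.47 with each other over 36 arrays (permutation p = 0.00244 and 0.00381, adjusted 0.00293 and 0.00457). Over the 27 untitled arrays these were 0.39 and 0.30 (permutation p = 0.0455 and 0.128, adjusted 0.0682 and 0.192). Without the 2 farthest arrays r was 0.44 and, untitled, 0.20. Prtn3 and Camp had r = 0.49 and rho = 0.59 (permutation p = 0.00189 and 0.00015, adjusted 0.00283 and 0.000225), and over 29 untitled arrays 0.40 and 0.52 (permutation p = 0.0323 and 0.00447, adjusted 0.0646 and 0.0134). Prtn3 and S100a8 had r = 0.31 and rho = 0.39 (permutation p = 0.0575 and 0.0175, adjusted 0.0575 and 0.0175), and over the untitled arrays 0.17 and 0.23 (permutation p = 0.388 and 0.23, adjusted 0.388 and 0.23). Without the 2 farthest arrays Prtn3 had r = 0.47 with Camp and 0.35 with S100a8, and 0.53 and 0.24 over the untitled ones. After diet and time label were taken out, given without a test, S100a8 and Camp had r = 0.89, Mpo and S100a8 0.71, Mpo and Camp 0.69, Mpo and Prtn3 0.59, Prtn3 and Camp 0.52 and Prtn3 and S100a8 0.35. All arrays share 1 scaling, and values near background share the brightness of their array.

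Over all pairs of members, given without a test, r was highest for S100a8 and S100a9 (0.99 over 39 arrays), then for Camp and Ngp (0.92 over 36) and for Camp and Ltf (0.92 over 38). The lowest was that of Prtn3 and Csf3r (0.16 over 38). The genes whose pattern was most like the late score, among 16755 other genes and with no test, were Retnlg (r = 0.98), Mmp8 (0.96), Stfa2l1 (0.95), Gm5483 (0.95) and Pglyrp1 (0.94), over 37 or 38 arrays. For the early score they were LOC100046103 (0.89), Gm3627 (0.88), Omg (0.87), Nrxn2 (0.87) and Grhl3 (0.86) over 36 arrays. Gm3627, Omg and Grhl3 were well above background on 20 arrays each, the fewest that the rule allowed. Prtn3 was not well above background on 24 of the 36 arrays with an early score. The likeness to the early score may thus follow background rather than granule genes, which was not tested.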

How the data were processed

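Agilent 1-colour arrays of 39 samples were used. Per the labels and file headers, the authors scanned them and took spot intensity with Agilent Feature Extraction (version 9.1 in the submitters' processing notes), background subtracted and not normalized between arrays. The log2 values of the deposited table, relative to an array of the same time label, were used as an alternative.

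Here the log2 processed signal minus the 75th percentile of the array was used, spots with outlier marks were left out and spots of a probe averaged. Probes well above background on at least 6 arrays, counted over the spots used, were tested (31718 of 40628). limma 3.58.1 in R 4.3.3 fitted diet and time label together, two-sided, with Benjamini-Hochberg adjustment over all probes at 0.05. The dose, time, interaction and title fits are named beside their results. The limma script was tested on simulated data with 200 changed probes. Arrays have no read depth, and their number limits the precision. P-values measure the spread between these samples, since nothing says which came from separate animals. The members, gene lists and tests were chosen with earlier results of these data known. Named genes are the 10 members, listed genes where a result turned on one, and the 5 most alike for each score, among probes well above background on at least 20 arrays and measured on at least 36. Alternatives covered scaling, background, filters, blocks, array weights, titles, labels and leaving out each time label. Other tools were Python 3.11.15, pandas 2.3.3 and scipy 1.17.1.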

Additional observations from a re-analysis of the deposited data

Results flagged for a closer look

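The highest or lowest array of a diet stood apart from the others (by its gap to the nearest array over the range of the group) in 8 of 42 groups of a gene and a diet, where chance gives about 1 in 20. Groups with 11 values were not tested, which left out HFC for all members except Mpo and Ngp. On HF75 Week 15, an array with BA in its title, 6 genes were low: Camp at -5.73, Cebpe at -6.72, Ltf at -5.82, Ngp at -8.40, S100a8 at -2.67 and S100a9 at 0.66, and the Cebpe and Ngp values were not well above background. These 6 share 1 array and are not separate events. Mpo stood apart as high on HF75 Week 18 (1.16), and Prtn3 as low on LFC Week 0 (-6.73), where it was not well above background.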

How the results depend on the processing

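No granule gene was called for a diet, dose or time comparison under any alternative run. The counts of all probes called moved from 0 for HFC against LFC to 4 (quantile), 2 (median scaling), 1 (probes well above background on all arrays), 33 (array weights), 4 (title term), 2 (without titled arrays), 1 (without arrays with over 10% outlier spots), 1 (without the Week 12 HF20 array) and 6 (without titled arrays and HFC Week 6). For HF75 they were 1 (title term), 3 (without titled arrays) and 4 (also without HFC Week 6). The dose trend had 44 (array weights) and 86 (title term). The time trend had 6 (quantile), 1 (normexp), 10 (all-array filter), 220 (array weights), 12 (title term), 5 (Week 12 HF20 as HFC) and 45 (without titled arrays and HFC Week 6).

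By title the count of 15986 moved to 10601 (quantile), 25867 (normexp), 24413 (no filter) and 2570 (all-array filter), where 2 members were tested and both called. Apart from Prtn3, lower and called under 9 of 14 alternatives, the members stayed lower and called under each alternative that kept all time labels and tested them. Leaving out each time label gave 0 to 7 probes for HFC against LFC, 0 to 9 for the dose trend (the highest of both without Week 15), 0 to 1 for the time trend, and 9621 (without Week 12) to 18129 by title, with 8 to 10 members. The median of all probes by title was -0.16, 0.24 with quantile, 0.36 with median scaling and -1.15 with normexp, and for HFC against LFC 0.04, -0.08, -0.27 and -0.29.

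Estimates that were never called turned sign. For HFC against LFC S100a8 was -0.11 (array weights), -0.059 (title term) and -0.13 (without the 2 arrays lowest in Ucp1), and -0.41 to 1.39 over time labels left out. Camp was -0.040 (normexp) and -0.10 (without titled arrays), and Mpo -0.23 (normexp). For HF20 S100a8 was -0.40 (without titled arrays and HFC Week 6). Mpo for HF20 was -0.55 (array weights) and -0.43 (t-test over all arrays of a diet), with -0.019 to 0.91 over time labels left out. For HF5 S100a8 was -0.15 to 2.08 over time labels left out. Prtn3 by title was 0.034 with quantile. Without the time label as replicate block Mpo for HF20 was -0.43, the counts of called probes stayed at 0, and no other call changed. A t-test was also run with all arrays of a diet as replicates, pooled over time labels. At an unadjusted p under 0.05 it gave 1283 probes (HFC against LFC), 1538 (HF5), 1749 (HF20) and 2119 (HF75). After Benjamini-Hochberg it gave 0. The study's methods instead describe a t-test of control against treated values at each time point, which 1 array per diet does not allow. Early minus late moved by less than its SD throughout, with all time labels from -0.48 to -0.26 for HFC against LFC, -1.75 to 0.54 for HF5, -1.90 to 0.09 for HF20 and -1.58 to 1.01 for HF75, and with each left out from -0.92 to 0.36, -0.93 to 0.54, -2.80 to -1.01 and -1.94 to 1.01, so its sign turned in each comparison under 1 setting or more. The causes were not tested. The slide block gave no time trend. The settings without HFC Week 6, with Day 14 exchanged and without the arrays lowest in Ucp1 were chosen after seeing the data. Weak signal limits Prtn3 most.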
